A study of Mus musculus with 24 samples.

Results

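The genes described here are the replication-dependent histone genes of the mouse, which lie together in 4 chromosomal clusters. They were taken by name, as every gene whose symbol starts with Hist1h, Hist2h, Hist3h or Hist4h, leaving out 1 pseudogene whose symbol ends in -ps. This gave 70 of 46078 genes in the tables of the manipulated embryos and 69 of 55573 genes in the table of oocytes and late 2-cell embryos. By protein they were 6 genes for the linker histone H1, 20 for H2A, 19 for H2B, 12 for H3 and 13 for H4, and the table of oocytes held 18 for H2B. Hist1 members lay on chromosome 13, the 11 Hist2 members on chromosome 3, the 2 Hist3 members on chromosome 11 and Hist4h4 alone on chromosome 6 (mm10, GENCODE vM21 models). Hist1h2aj and Hist1h2al are pseudogenes in that annotation.

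Histone cluster genes are made mostly in S phase, to package newly copied DNA, and many near-identical copies serve each histone type. Their mRNAs have no introns and typically end in a short stem-loop instead of a poly(A) tail; the stem-loop binding protein, encoded by Slbp, holds this structure and directs 3′-end cutting, export and translation. Eggs and early embryos divide first on histone mRNA and protein stored during oocyte growth, and then on their own transcripts, and the oocyte linker histone encoded by H1foo gives way to somatic H1.

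The 24 libraries of total RNA, 2 for each of 12 groups, came from pooled mouse embryos or oocytes and are given as FPKM, fragment counts scaled to gene length and library size. Libraries of total RNA do not select poly(A) tails. The PR-DUB and KDM6B groups, each with overexpressing (OE) and control (CTR) embryos at the 4-cell and 2-cell stages, were B6/DBA x PWK crosses labelled as wild type on both sides. PR-DUB, the BAP1 and ASXL1 enzyme, removes ubiquitin from histone H2A, and KDM6B removes methyl groups from H3K27; the design text asks how losing each mark changes the transcriptome. Eed matKO and Eed CTR 4-cell embryos were B6/129mixed x PWK crosses of an Eed CKO or Eed CTR mother with a wild-type father; EED is a core part of the complex that writes H3K27me3. The late 2-cell embryos were wild-type B6/DBA x B6/DBA and the MII oocytes, which are eggs ready for fertilization, wild-type B6/DBA. A library pooled 15 embryos in the PR-DUB 2-cell groups, 16 in PR-DUB OE 4-cell, 19 in PR-DUB CTR 4-cell and 17 or 18 in the KDM6B 2-cell groups; the other pool sizes were not given in the sources used here. The labels state neither what the controls received nor whether replicates were separate collections, so p-values measure the spread between these libraries only. Titles of the Eed knockout libraries say OE where the manipulation field says matKO, and the manipulation field of the KDM6B OE 2-cell libraries names PR-DUB; the matKO label and the KDM6B title were followed.

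The steps between low FPKM values put the depth at about 11500000 to 20500000 fragments per library, so that 1 FPKM of a gene of 400 bases was 4.61 to 8.21 fragments. Of the genes manipulated, Bap1 had 10.6 and 8.81 FPKM in PR-DUB OE 4-cell embryos, against 6.02 and 6.20 FPKM in their controls. Asxl1, the other subunit, had 7.60 and 10.8 FPKM in PR-DUB OE 4-cell embryos, against 12.9 and 12.2 FPKM in PR-DUB CTR 4-cell embryos, and 17.6 and 16.0 FPKM in PR-DUB OE 2-cell embryos, against 17.2 and 16.8 FPKM in PR-DUB CTR 2-cell embryos, so its transcript was not higher in all OE libraries than in controls. Kdm6b had 14237 and 9809 FPKM in KDM6B OE 2-cell embryos, against 14588 and 14735 FPKM in KDM6B CTR 2-cell embryos. At the 4-cell stage it had 597 and 547 FPKM in KDM6B OE and 571 and 401 FPKM in KDM6B CTR embryos. PR-DUB libraries had at most 26.4 FPKM, so Kdm6b was far higher in the KDM6B controls too. The transcript did not separate KDM6B OE from CTR, and the labels do not say why. Eed had 22.7 and 26.9 FPKM in matKO embryos and 28.5 and 33.1 FPKM in Eed CTR embryos. Embryos carried next to no cumulus cell signal: the 10 cumulus markers summed to 0.0399 to 1.68 FPKM in every embryo library, and to 7.09 and 7.36 FPKM in MII oocytes, where Cyp19a1 gave up to 6.59 FPKM while Amh, Lum and Tnfaip6 were listed at 0. The 8 oocyte markers were present in all libraries, at 3837 and 3922 summed FPKM in MII oocytes. The first 12 libraries were sequenced on a NextSeq550; the other 12, which include the KDM6B 4-cell, Eed, MII and late 2-cell groups, on a NextSeq550 or HiSeq2000, not stated per library.

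The stem-loop that marks this class of mRNA was looked for in the longest coding GENCODE vM21 model of each of the 69 members with a model, as 16 bases with a paired stem around a T-rich loop. It was found in 45 of them, 21 to 58 bases after the stop codon with a median of 31. It was present in 4 of 6 H1, 11 of 20 H2A, 9 of 18 H2B, 9 of 12 H3 and 12 of 13 H4 models. In 15 models fewer than 20 bases follow the stop, and 0 of these 15 hold it, so those models end before the place where it would lie. One form, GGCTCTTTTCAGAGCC, made up 25 of the 45; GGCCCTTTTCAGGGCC made up 7 and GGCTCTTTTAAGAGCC made up 6. The sites below are from members that the results turn on, with the stem-loop in capitals and 5 bases on each side, as DNA in the mRNA's direction.
Hist1h1c: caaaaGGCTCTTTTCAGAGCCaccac
Hist1h2ac: ccaaaGGCTCTTTTCAGAGCCcccac
Hist1h2bb: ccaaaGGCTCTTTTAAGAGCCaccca
Hist1h3f: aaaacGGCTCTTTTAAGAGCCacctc
Hist1h4d: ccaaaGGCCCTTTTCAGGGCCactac
Hist4h4: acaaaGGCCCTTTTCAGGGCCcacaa
The 6 sites hold 3 forms, which differ at a pair of stem bases and at the last base of the loop, and each has a run of A bases before the stem. In 18 of the 45 models the transcript ran over 200 bases past the stem-loop, up to a whole model of 7425 bases for Hist1h1d; FPKM of such genes is divided by that longer length, if the annotation used was alike.

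Promoters were read from RefSeq (GRCm38.p6), 250 bases before to 50 after each start, for 61 of the 69 members; a promoter was accepted only on the member's own strand and within 200 bases of its gene model. Both strands were searched for CCAAT, for TATAAA, for the octamer ATTTGCAT that is known from H2B genes and for AAACACA, known from H1 genes; none of these contains another. A CCAAT stood in 52 of 61 member promoters, against 37.92% of all 27025 promoters: in all 6 H1 promoters, in 17 H2A, 16 H2B and 10 H3 promoters, and in 3 of 12 H4 promoters. TATAAA stood in 35 of 61, against 14.16% of all. The octamer stood in 13 of 61, against 1.754% of all, and these were 7 H2A and 6 H2B genes. AAACACA stood in 9 of 61, against 7.138% of all; 5 of the 6 H1 promoters had it and Hist1h1a, the H1 gene that differs from the others below, did not. A match describes the letters in the window and is not a site of binding. The promoters shown are those of Hist1h1a and Hist1h1c, H1 genes that moved in opposite directions between stages, of Hist1h2aa, which shares its start region with the divergent Hist1h2ba, and of Hist1h4d, the most abundant H4 gene at the 4-cell stage. They lie at chr13:23763418-23763717, chr13:23738557-23738856, chr13:23934187-23934486 and chr13:23581318-23581617, all on the plus strand, with the searched motifs in capitals.
Hist1h1a: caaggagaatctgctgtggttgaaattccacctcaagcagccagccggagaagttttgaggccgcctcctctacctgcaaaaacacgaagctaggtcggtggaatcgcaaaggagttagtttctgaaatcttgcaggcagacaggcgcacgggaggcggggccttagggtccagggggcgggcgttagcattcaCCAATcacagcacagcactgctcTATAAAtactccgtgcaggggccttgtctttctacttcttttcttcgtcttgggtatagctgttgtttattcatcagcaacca
Hist1h1c: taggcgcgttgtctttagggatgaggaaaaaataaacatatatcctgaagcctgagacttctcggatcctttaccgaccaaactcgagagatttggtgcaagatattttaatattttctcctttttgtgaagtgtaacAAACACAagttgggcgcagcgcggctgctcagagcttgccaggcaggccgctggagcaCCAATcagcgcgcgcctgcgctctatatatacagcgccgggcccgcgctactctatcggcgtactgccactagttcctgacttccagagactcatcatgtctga
Hist1h2aa: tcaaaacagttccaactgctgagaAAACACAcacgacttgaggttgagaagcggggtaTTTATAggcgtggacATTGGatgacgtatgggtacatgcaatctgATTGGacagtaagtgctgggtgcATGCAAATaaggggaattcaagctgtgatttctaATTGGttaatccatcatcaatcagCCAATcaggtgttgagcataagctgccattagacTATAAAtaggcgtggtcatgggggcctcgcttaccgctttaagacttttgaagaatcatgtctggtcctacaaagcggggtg
Hist1h4d: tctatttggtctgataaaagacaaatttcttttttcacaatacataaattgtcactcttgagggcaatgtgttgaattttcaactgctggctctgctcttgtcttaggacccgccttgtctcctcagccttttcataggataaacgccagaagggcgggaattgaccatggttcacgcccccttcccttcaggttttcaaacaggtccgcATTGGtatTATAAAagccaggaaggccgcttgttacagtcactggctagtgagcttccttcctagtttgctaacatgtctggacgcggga
The window of Hist1h2ba, chr13:23934107-23934406 on the minus strand, overlaps that of Hist1h2aa for most of its length, so both genes share the octamer and CCAAT matches of the common stretch.

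Within the table of PR-DUB and KDM6B embryos, PR-DUB OE 4-cell embryos had the lowest sum of histone transcripts over the members. The sum was 2005 and 2262 FPKM in PR-DUB OE 4-cell embryos, against 3051 and 3098 FPKM in PR-DUB CTR 4-cell embryos. Both OE libraries lay below both controls, at 2133 ± 181 FPKM against 3074 ± 33.3 FPKM (SD, n = 2 each). As a share of the total FPKM over all genes the members made up 0.271 and 0.323% in PR-DUB OE 4-cell and 0.413 and 0.410% in PR-DUB CTR 4-cell embryos. With 2 libraries against 2 the exact permutation test cannot give a two-sided p below 0.333, so sums are described without a test. FPKM shows shares of a library's RNA, and with pooled embryos fewer cells holding a transcript and less of it per cell cannot be told apart.

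In the other manipulations the sums overlapped or lay close. PR-DUB OE 2-cell embryos had 4009 and 3872 FPKM and their controls 3969 and 4032 FPKM. KDM6B OE 4-cell embryos had 4117 and 2535 FPKM, spanning their controls at 3078 and 3836 FPKM, and KDM6B OE 2-cell embryos had 3897 and 3630.5 FPKM, below 4208 and 4076 FPKM in KDM6B CTR 2-cell embryos. Eed matKO embryos had 5259 and 6627 FPKM, inside the wide range of the Eed CTR libraries at 6792 and 4178 FPKM. Late 2-cell embryos had 2496 and 2767 FPKM, against 1307 and 1533 FPKM in MII oocytes. The total FPKM over all genes also differed between those groups: as a share of it, the members made up 0.476 and 0.483% in late 2-cell embryos and 0.368 and 0.425% in MII oocytes. That share was 0.813 and 0.730% in KDM6B OE 2-cell and 0.897 and 0.901% in KDM6B CTR 2-cell embryos, lower in OE as in the sum. It was 0.768 and 0.953% in Eed matKO and 0.973 and 0.602% in Eed CTR embryos, which again overlapped. The order of groups from separate tables could depend on the scale. PR-DUB OE 4-cell embryos lay above MII oocytes in the sum and below them in the share. At least 1 FPKM was reached by 62 members in each late 2-cell library, by 37 and 38 members in the MII libraries, and by 62 to 68 members in the libraries of manipulated and control embryos. Tables were normalized separately, so levels set side by side across the PR-DUB and KDM6B table, the Eed table and the oocyte table are not tested.

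**Figure D1:**
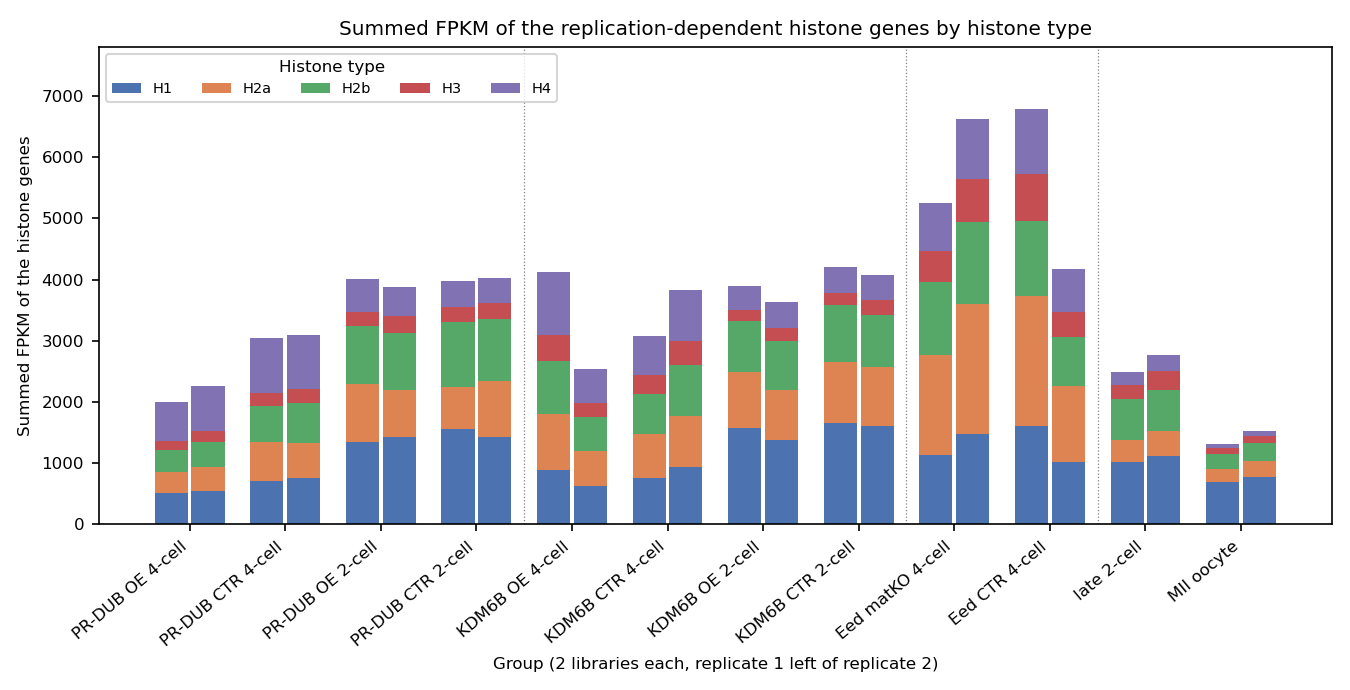
Summed FPKM of the replication-dependent histone genes in each library, as stacked bars by histone type; each group has 2 bars, replicate 1 left of replicate 2, and dotted lines part the experiments. Both PR-DUB OE 4-cell bars, at 2005 and 2262, are below both PR-DUB CTR 4-cell bars, and the H4 share is widest in the PR-DUB 4-cell groups.

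The mix of histone types differed between stages, which is described here without a test. H1 transcripts made up 40.8 ± 0.443% of the summed FPKM in late 2-cell embryos and 51.7 ± 1.08% in MII oocytes (SD, n = 2 each). In the PR-DUB controls H1 made up 23.9 ± 0.810% at the 4-cell stage and 37.4 ± 2.67% at the 2-cell stage, and H4 made up 29.0 ± 0.873% at the 4-cell stage and 10.4 ± 0.318% at the 2-cell stage. In KDM6B controls H4 made up 21.3 ± 1.01% at the 4-cell stage and 10.03 ± 0.203% at the 2-cell stage. In PR-DUB 4-cell embryos the H1 and H3 shares overlapped between OE and CTR, and H1 made up 24.5 ± 1.07% in OE. H4 was higher in both OE libraries, at 32.0 and 32.4% (32.2 ± 0.234%), against 29.6 and 28.4% in CTR. H2A was lower in OE, at 17.3 and 17.5% against 20.7 and 18.6% in CTR. H2B was lower too, at 17.8 and 18.4% against 19.4 and 20.9%. Shares also lay apart for H2B and H4 in PR-DUB 2-cell, H2A in KDM6B 2-cell, and H1, H2B and H4 in Eed embryos. The other shares overlapped, among them all types in KDM6B 4-cell embryos. In Eed libraries H2A was the largest type, at 31.5 ± 0.878% in matKO and 30.5 ± 1.08% in Eed CTR embryos.

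**Figure D2:**
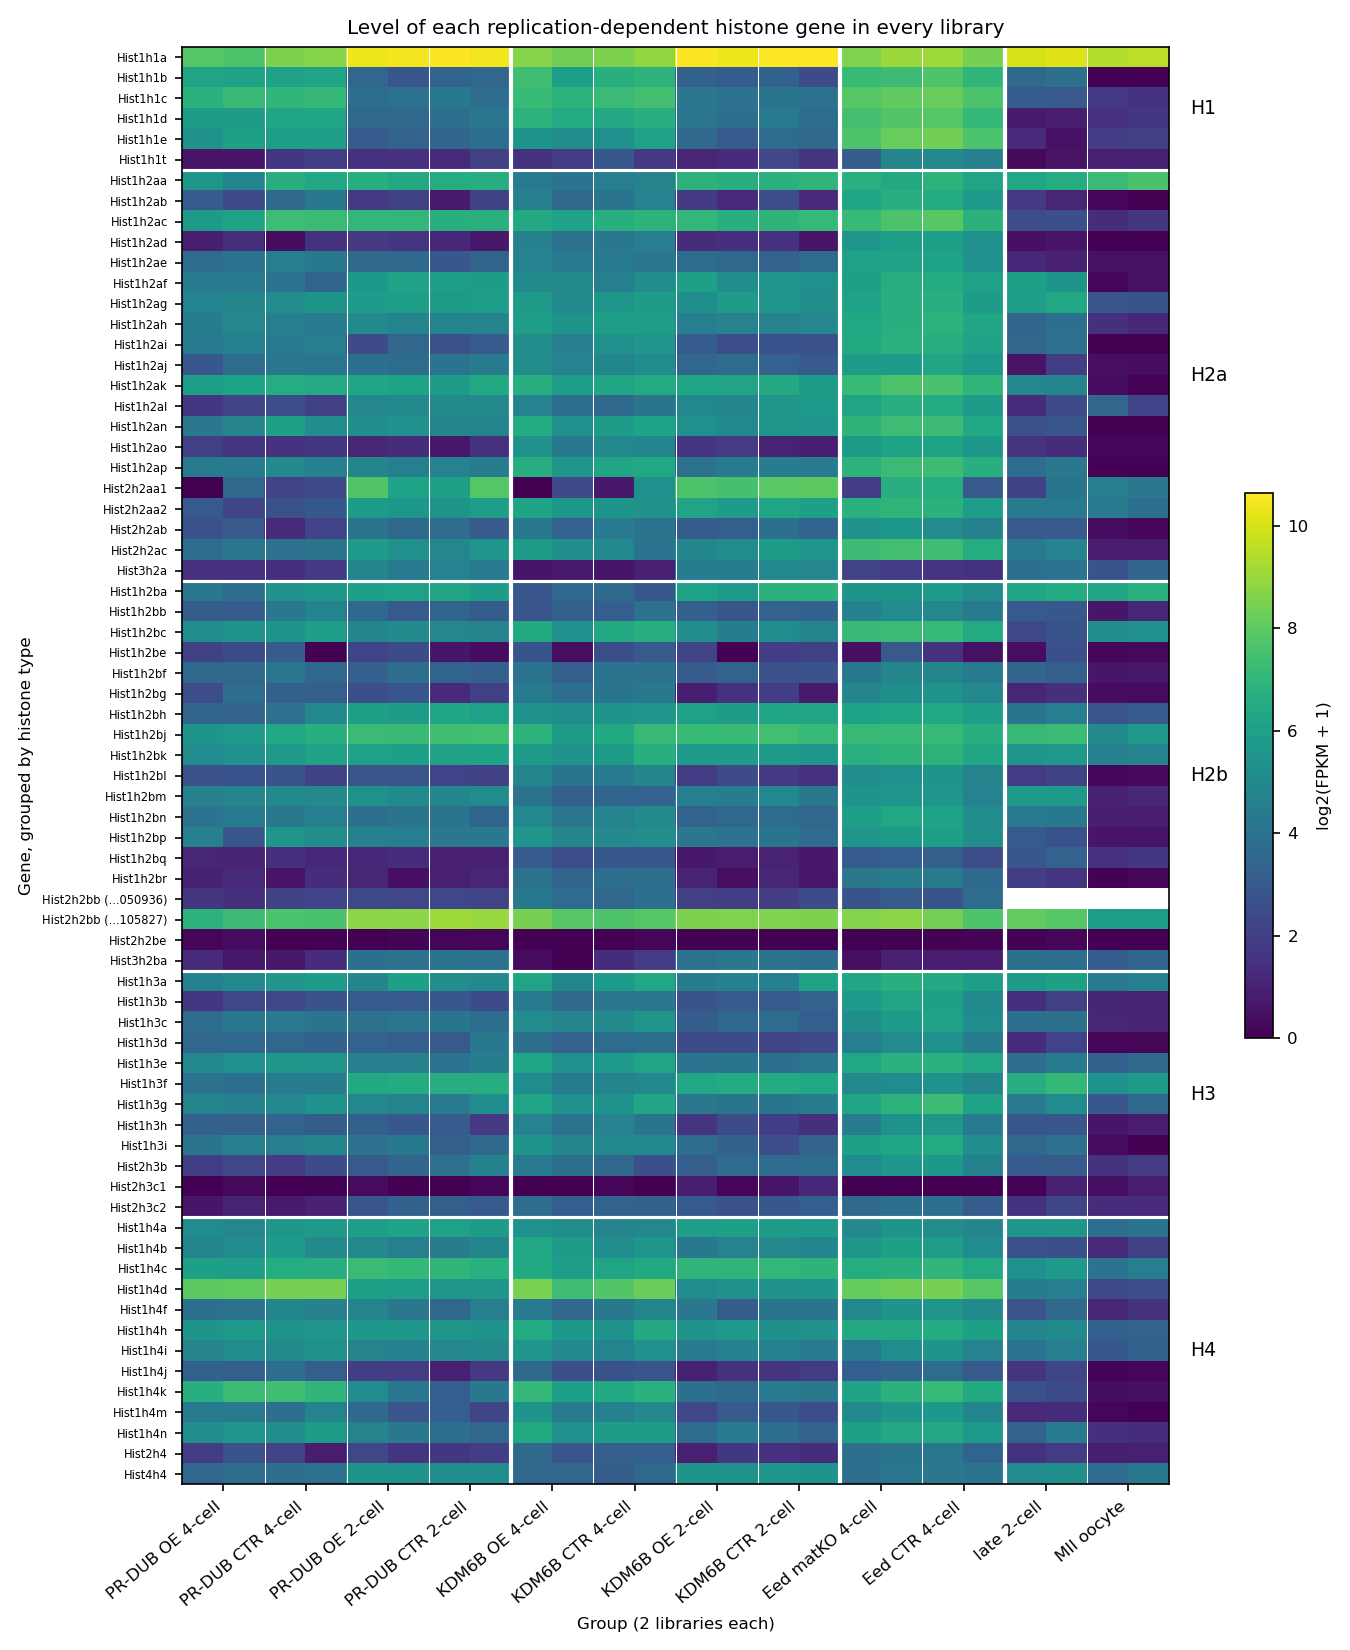
Level of every member in every library as log2(FPKM + 1), rows by histone type and columns by group with 2 libraries each; the row left white in the oocyte table has no entry there. Hist1h1a is the brightest row in oocytes and 2-cell embryos, at 677 to 1590 FPKM, and most rows are darkest in MII oocytes.

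Single genes carried much of each type. The linker histone gene Hist1h1a (chr13:23763666-23764406) was 97.9 ± 0.0924% of all H1 FPKM in late 2-cell embryos, 98.9 ± 0.0740% in MII oocytes and 96.3 ± 0.370% in PR-DUB CTR 2-cell embryos. At the 4-cell stage it was 40.9 ± 5.01% in PR-DUB OE and 53.5 ± 1.06% in PR-DUB CTR embryos, 49.3 ± 3.23% in KDM6B OE and 49.4 ± 0.434% in KDM6B CTR embryos, and 34.4 ± 1.51% in Eed matKO and 33.6 ± 0.709% in Eed CTR embryos. Among H2B genes Hist2h2bb had the highest mean FPKM over the libraries of each of the 3 tables, though in MII oocytes alone Hist1h2ba was above it, at 73.9 and 106 FPKM against 59.8 and 60.6 FPKM. Its name stands on 2 rows of the embryo tables: the protein-coding gene, ENSMUSG00000105827 at chr3:96269752-96270132, with 115.8 to 543 FPKM, and ENSMUSG00000050936, a long non-coding RNA in GENCODE vM21 at chr3:96269721-96279001 on the same strand, with 1.75 to 18.6 FPKM. These models overlap, so reads of the shared stretch could be given to either row. At the other end, Hist2h2be and Hist2h3c1 reached at most 0.279 and 1.304 FPKM in any library and did not pass the filter of 1 FPKM in at least 2 libraries in any table.

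Histone transcripts were mostly higher in late 2-cell embryos than in MII oocytes, but the way genes entered the test bears on the count. A gene was tested where 2 of the 4 libraries reached 1 FPKM, so a gene near 0 in oocytes passed only if it was high in late 2-cell embryos, and then had to come out higher. This held for 23 of the 62 members tested, all 23 called higher, and for 2082 of the 13237 genes tested; 1 member, Hist1h1d, passed through the oocytes alone and was called lower. Of the other 38, which reached 1 FPKM in a library of each group, 29 were higher and 3 lower in late 2-cell embryos (limma on log2(FPKM + 1), Benjamini-Hochberg adjusted p under 0.05). Together these make 52 higher and 4 lower, where 38% of all genes tested were called higher and 44.6% lower. By type, the genes called higher were 13 of 13 H4, 9 of 11 H3, 14 of 16 H2B, 13 of 17 H2A and 3 of 5 H1 genes tested, counting those 23. Without one of the late 2-cell libraries 39 members remained testable and 32 or 33 were called. Every fold here is on log2(FPKM + 1) and understates the change of a gene at low FPKM.

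The genes with the largest increases were H2A and H2B genes that were almost unlisted in oocytes. Hist1h2af had 63.6 and 43.9 FPKM in late 2-cell embryos and 0.136 and 0.411 FPKM in MII oocytes (log2 change 5.41 ± 0.23, adjusted p = 2.00e-05, limma). Hist1h2bm had 55.7 and 53.2 FPKM in late 2-cell embryos and 0.961 and 1.3004 FPKM in MII oocytes (4.71 ± 0.15, adjusted p = 1.12e-05). Hist1h2ak had 29.3 and 27.2 FPKM in late 2-cell embryos and 0.278 and 0.0715 FPKM in MII oocytes (4.64 ± 0.18, adjusted p = 1.52e-05). In each of these the groups were far apart compared with the spread within a group. Hist1h1b, a somatic H1 gene, had 11.7 and 13.7 FPKM in late 2-cell embryos and was listed at 0 in both MII libraries, as was Hist1h2an, which had 5.20 and 6.15 FPKM in late 2-cell embryos; no fold is given for them. Of the genes named in these sentences, Hist1h2bm, Hist1h2ag and Hist1h3c reached 1 FPKM in an oocyte library; the others entered the test through the late 2-cell libraries alone, so their log2 changes and p describe these libraries and add no support. The other called genes among the 12 with the largest change were all higher. They were the H2A genes Hist1h2ap (3.96 ± 0.21, adjusted p = 3.11e-05), Hist2h2ac (3.74 ± 0.19, adjusted p = 2.65e-05), Hist1h2ag (3.34 ± 0.17, adjusted p = 2.93e-05), Hist2h2ab (2.75 ± 0.16, adjusted p = 4.32e-05) and Hist1h2ai, the H2B gene Hist1h2bn (3.48 ± 0.16, adjusted p = 2.21e-05), and the H3 genes Hist1h3i (3.60 ± 0.23, adjusted p = 4.96e-05) and Hist1h3c (2.84 ± 0.16, adjusted p = 4.01e-05, all limma). Hist1h2ai had 10.4 and 14.6 FPKM in late 2-cell embryos and 0 and 0.00500 FPKM in MII oocytes, too low there for a fold. Hist1h2ag was the highest of them in oocytes, at 5.93 and 5.84 FPKM, against 59.2 and 79.6 FPKM in late 2-cell embryos.

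Hist1h1a, the most abundant member in oocytes, changed less. It had 1004 and 1098 FPKM in late 2-cell embryos and 677 and 772 FPKM in MII oocytes (0.54 ± 0.14, adjusted p = 0.0122, limma), a call that did not hold without either late 2-cell library. Hist2h2bb had 267 and 227 FPKM in late 2-cell embryos and 59.8 and 60.6 FPKM in MII oocytes (2.02 ± 0.12, adjusted p = 4.66e-05). Hist1h3f, the highest H3 gene by mean over this table, had 98.4 and 134 FPKM in late 2-cell embryos, above 42.4 and 52.3 FPKM in MII oocytes. Of the 13 H4 genes, all called higher, 4 entered through the late 2-cell libraries alone. Hist1h4c had 39.9 and 51.7 FPKM in late 2-cell embryos and 15.6 and 22.5 FPKM in MII oocytes (1.23 ± 0.22, adjusted p = 0.00265). Hist1h4a had 47.2 and 48.6 FPKM in late 2-cell embryos and 13.4 and 16.5 FPKM in MII oocytes (1.62 ± 0.14, adjusted p = 1.51e-04). Hist1h2bj, the second H2B gene by the same mean, had 138 and 149.8 FPKM in late 2-cell embryos and 32.3 and 52.7 FPKM in MII oocytes. Hist1h3a, the second H3 gene by it, had 54.4 and 64.3 FPKM in late 2-cell embryos and 20.6 and 24.2 FPKM in MII oocytes. The 4 genes that fell were Hist1h1d, Hist1h1e, Hist1h2aa and Hist1h2bc. Hist1h2bc had 3.99 and 5.76 FPKM in late 2-cell embryos and 37.3 and 39.1 FPKM in MII oocytes (-2.75 ± 0.18, adjusted p = 6.03e-05). Hist1h2aa and Hist1h2ba encode the H2A and H2B variants known from testis and oocyte. Hist1h2aa had 81.2 and 95.0 FPKM in late 2-cell embryos, below 153 and 192 FPKM in MII oocytes, while its neighbour Hist1h2ba had 74.3 and 93.2 FPKM in late 2-cell embryos and 73.9 and 106 FPKM in MII oocytes, which overlap.

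Genes that make, hold or replace histones were called in both directions, beside the 38% higher and 44.6% lower of all genes. Slbp had 71.2 and 75.0 FPKM in late 2-cell embryos and 282 and 259 FPKM in MII oocytes (-1.87 ± 0.11, adjusted p = 4.15e-05, limma). Of 17 histone mRNA synthesis and processing genes tested, 5 were higher and 7 lower in late 2-cell embryos; Ncbp1, a cap-binding protein, was higher, and Cpsf3, the histone mRNA endonuclease, and Zfp473, a part of the processing machinery, were lower. Of 11 replication-independent histone genes 5 were higher and 3 lower. H1foo had 20.4 and 25.5 FPKM in late 2-cell embryos and 566 and 749 FPKM in MII oocytes (-4.78 ± 0.18, adjusted p = 1.53e-05). H2afz, the H2A.Z gene, had 95.0 and 77.5 FPKM in late 2-cell embryos and 3.33 and 4.96 FPKM in MII oocytes (4.09 ± 0.20, adjusted p = 2.62e-05). Of 17 histone chaperones 5 were higher and 7 lower, among them Npm2, the egg nucleoplasmin, at 49.8 and 47.8 FPKM in late 2-cell embryos and 485 and 525 FPKM in MII oocytes. Of 14 S-phase genes 6 were higher and 4 lower, and Ccne1, cyclin E1, was higher at 464 and 443 FPKM in late 2-cell embryos against 3.38 and 3.36 FPKM in MII oocytes. All 8 oocyte markers were lower and 5 of 6 tested markers of 2-cell genome activation were higher in late 2-cell embryos; the 1 cumulus marker tested, Cyp19a1, was lower, at 0.404 and 0.288 FPKM in late 2-cell embryos and 6.59 and 6.19 FPKM in MII oocytes. The part of cumulus RNA in the histone values was not tested.

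Between the 2-cell and the 4-cell stage the members moved in both directions, as all genes tested did, and type by type in unlike ways. For the PR-DUB controls a NextSeq550 is given at both stages. In them 19 members were higher and 16 lower at the 4-cell stage of 68 tested, beside 26.5% of all genes higher and 30.2% lower. The share of members higher was near that of all genes, and the share lower somewhat below it. The median was 0.23 and that of all genes -0.04. In the KDM6B controls 34 were higher and 16 lower, beside 38% of all genes higher and 26.1% lower, with a median of 0.76 and 0.28 over all genes. Here the share of members lower was near that of all genes, and the share higher was above it. With libraries rescaled by median-of-ratios factors the split was 22 higher and 15 lower in PR-DUB controls and 30 higher and 20 lower in KDM6B controls. For the KDM6B 2-cell libraries a NextSeq550 is given, and for the KDM6B 4-cell libraries a NextSeq550 or HiSeq2000, not stated per library. Stage and any difference in sequencing cannot be told apart in these controls.

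Among H1 genes Hist1h1a fell and the other somatic genes rose. Hist1h1a had 375 and 411 FPKM in PR-DUB CTR 4-cell embryos and 1508 and 1377 FPKM in PR-DUB CTR 2-cell embryos (-1.87 ± 0.14, adjusted p = 3.08e-07, limma), and fell likewise in KDM6B controls, to 371 and 464 FPKM against 1589.6 and 1562 FPKM. Hist1h1c had 127 and 133 FPKM in PR-DUB CTR 4-cell embryos and 18.5 and 12.8 FPKM in PR-DUB CTR 2-cell embryos (2.999 ± 0.19, adjusted p = 1.04e-07). Hist1h1b, Hist1h1d and Hist1h1e rose by 2.69, 2.27 and 2.29 on the log2 scale in PR-DUB controls, and in KDM6B controls by 3.89, 2.49 and 2.02. In both control sets these 4 genes were higher and Hist1h1a lower in all 4-cell libraries, with no overlap. Hist1h1t, the testis H1 gene, had 2.32 and 2.95 FPKM in PR-DUB CTR 4-cell embryos and 1.47 and 2.99 FPKM in PR-DUB CTR 2-cell embryos and was not called.

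**Figure D3:**
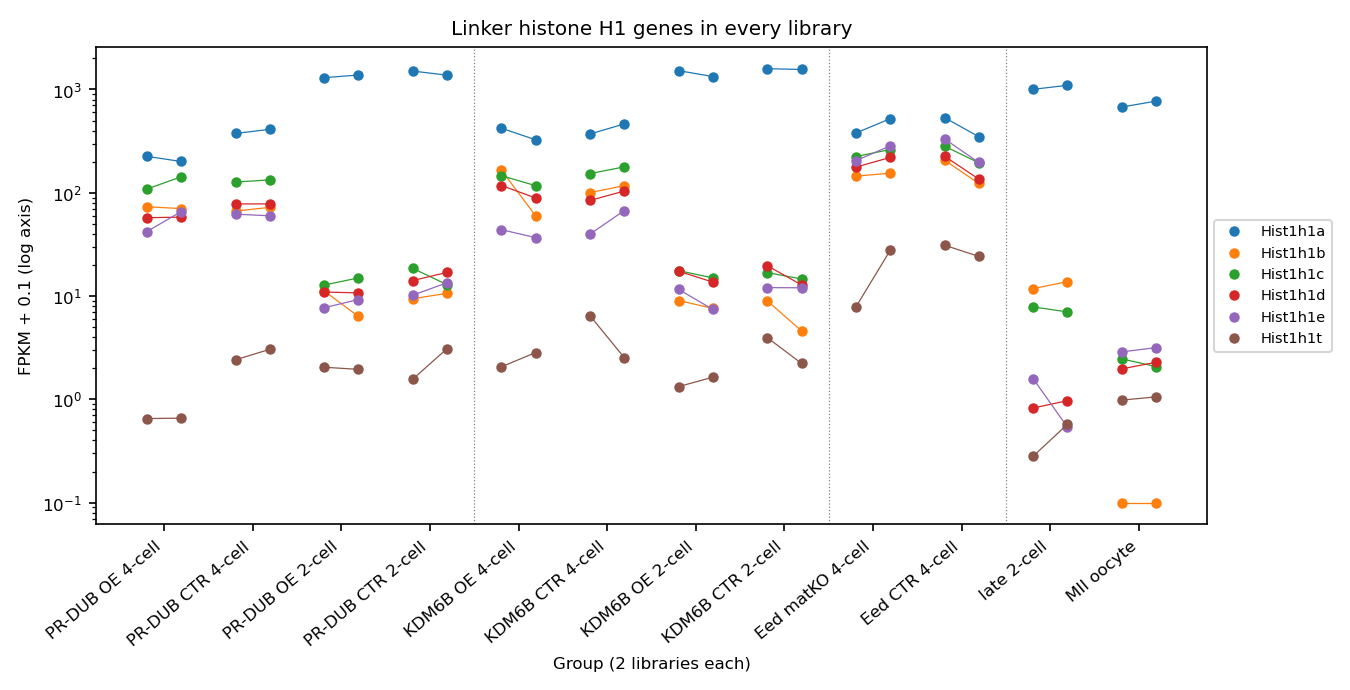
FPKM + 0.1 of the 6 H1 genes on a log axis, with 2 libraries per group joined by a line. Hist1h1a is far above the other H1 genes in 2-cell embryos, late 2-cell embryos and MII oocytes; in 4-cell embryos Hist1h1b, Hist1h1c, Hist1h1d and Hist1h1e come closer to it, and in Eed embryos closest.

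Of the H4 genes, Hist1h4d and Hist1h4k rose in both control sets. Hist1h4d had 354 and 354 FPKM in PR-DUB CTR 4-cell embryos and 48.7 and 48.2 FPKM in PR-DUB CTR 2-cell embryos (2.85 ± 0.28, adjusted p = 3.44e-06, limma). Hist1h4k had 165 and 128 FPKM in PR-DUB CTR 4-cell and 7.99 and 18.1 FPKM in PR-DUB CTR 2-cell embryos (3.48 ± 0.41, adjusted p = 1.59e-05). In KDM6B controls they rose by 2.55 and 2.33. By type, 5 H4 genes were higher and 1 lower of 13 tested in PR-DUB controls, and 6 were higher and 3 lower in KDM6B controls. Of 11 H3 genes tested 2 were higher and 3 lower in PR-DUB controls, and 7 higher and 1 lower in KDM6B controls. Over all genes 26.5% were higher and 30.2% lower in PR-DUB controls, and 38% and 26.1% in KDM6B controls. The one lower H4 gene in PR-DUB controls was Hist4h4 (chr6:136801553-136804415), which carries the same stem-loop as Hist1h4d. It had 14.0 and 15.0 FPKM in PR-DUB CTR 4-cell embryos and 36.0 and 36.4 FPKM in PR-DUB CTR 2-cell embryos (-1.27 ± 0.16, adjusted p = 2.30e-05).

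The members also split by cluster. In PR-DUB controls 19 of 56 Hist1 genes tested were higher and 6 lower at the 4-cell stage. Of the 12 tested Hist2, Hist3 and Hist4 genes 0 were higher and 10 lower, with a median log2 change of -1.94. Over all genes 26.5% were higher and 30.2% lower. In KDM6B controls 32 of 56 Hist1 genes were higher and 9 lower, against 2 higher and 7 lower of the 12. There 38% of all genes were higher and 26.1% lower. Between late 2-cell embryos and MII oocytes, by contrast, 44 of 51 Hist1 and 8 of 11 other genes were higher. These counts include genes that entered the test through the late 2-cell libraries alone. Over all genes 38% were higher and 44.6% lower in late 2-cell embryos. The difference between clusters was not tested. Some Hist2 genes differed between the control sets at the 4-cell stage. Hist2h2aa2 had 5.31 and 6.59 FPKM in PR-DUB CTR and 44.0 and 41.5 FPKM in KDM6B CTR embryos. Hist2h2ab had 1.44 and 3.45 FPKM against 20.2 and 16.3 FPKM. Hist2h2aa1, Hist2h2aa2, Hist2h3b and Hist2h3c2 also share 62.5 to 100% of their stretches of 76 bases with another gene model, so they may not count as separate genes. Hist3h2a had 1.79 and 2.38 FPKM in PR-DUB CTR 4-cell embryos and 25.1 and 19.5 FPKM in PR-DUB CTR 2-cell embryos (-2.91 ± 0.22, adjusted p = 3.19e-07, limma). Its neighbour Hist3h2ba had 0.662 and 1.52 FPKM in PR-DUB CTR 4-cell and 15.8 and 15.3 FPKM in PR-DUB CTR 2-cell embryos (-3.02 ± 0.27, adjusted p = 1.55e-06). Both were lower in every 4-cell library of either experiment than in any 2-cell library. Hist2h2bb, the highest H2B gene by mean over the table, had 194 and 189 FPKM in PR-DUB CTR 4-cell embryos and 543 and 512 FPKM in PR-DUB CTR 2-cell embryos (-1.45 ± 0.17, adjusted p = 1.31e-05). Of the other H2A genes Hist1h2ab, with 11.3 and 18.9 FPKM in PR-DUB CTR 4-cell and 0.699 and 3.26 FPKM in PR-DUB CTR 2-cell embryos, rose most (2.54 ± 0.52, adjusted p = 0.00114), and Hist1h2ac, the highest H2A gene by mean over the table, had 159.9 and 153 FPKM in PR-DUB CTR 4-cell and 101 and 106 FPKM in PR-DUB CTR 2-cell embryos. Hist1h2bj had 82.4 and 99.5 FPKM in PR-DUB CTR 4-cell and 163 and 168 FPKM in PR-DUB CTR 2-cell embryos (adjusted p = 0.0221, limma), a call that did not hold without either 2-cell library or without 4-cell replicate 1. Among Hist1 genes that fell was Hist1h3f, at 20.4 and 20.5 FPKM in PR-DUB CTR 4-cell embryos and 98.9 and 96.6 FPKM in PR-DUB CTR 2-cell embryos.

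**Figure D4:**
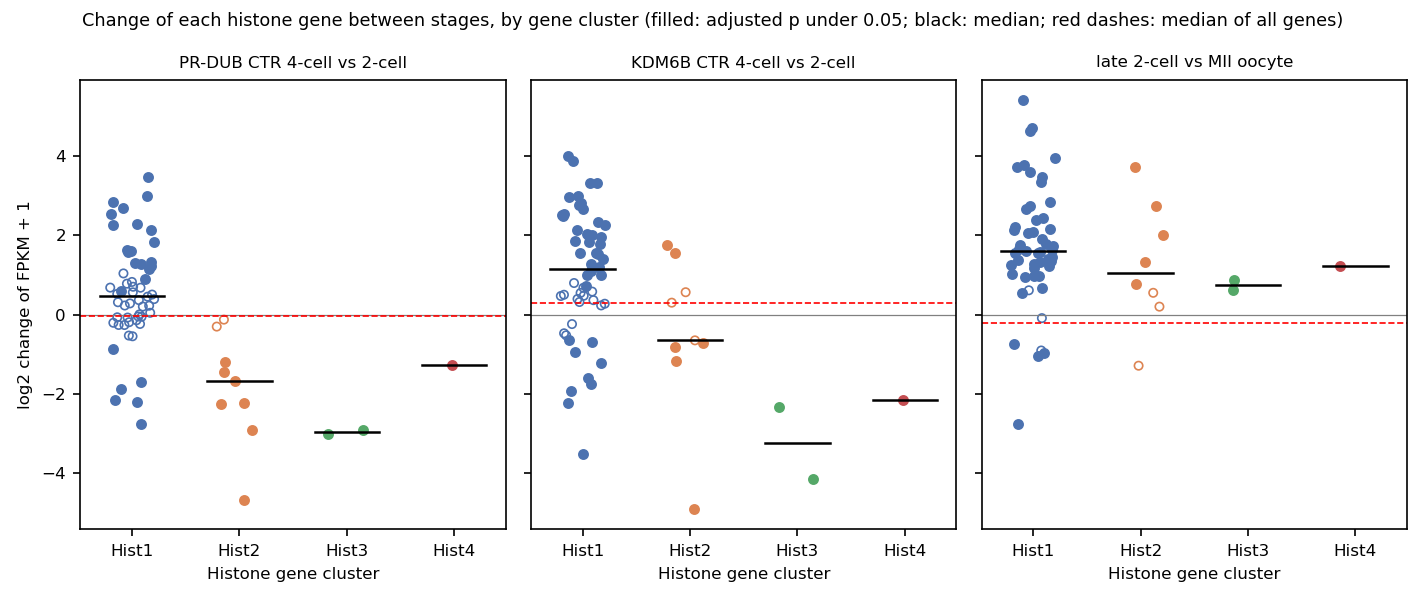
Log2 change of FPKM + 1 for each tested member between stages, grouped by gene cluster; filled points have an adjusted p under 0.05, black lines are medians and red dashes the median of all genes. In the PR-DUB controls the 12 points of Hist2, Hist3 and Hist4 all lie below 0, while those of Hist1 spread from -2.76 to 3.48.

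The variant pair Hist1h2aa and Hist1h2ba is given for each of the 2 control sets. In PR-DUB controls Hist1h2aa had 102 and 82.8 FPKM in 4-cell and 95.0 and 97.5 FPKM in 2-cell embryos, which overlap. In KDM6B controls it had 22.2 and 26.4 FPKM in 4-cell and 108 and 125 FPKM in 2-cell embryos (-2.22 ± 0.24, adjusted p = 5.36e-06, limma). Hist1h2ba had 11.8 and 6.38 FPKM in KDM6B CTR 4-cell and 113 and 108 FPKM in KDM6B CTR 2-cell embryos (-3.53 ± 0.28, adjusted p = 4.02e-07). In the PR-DUB controls it had 40.5 and 48.1 FPKM in 4-cell and 73.2 and 57.7 FPKM in 2-cell embryos. Whether the stage change differed between the sets was not tested. The 6 tested 2-cell activation markers summed to 139 to 176 FPKM in PR-DUB CTR 4-cell and 181 to 189 FPKM in PR-DUB CTR 2-cell embryos. Of them 1 was called lower there, and their median log2 change was 0.30 (limma). In KDM6B controls they summed to 27.1 to 51.9 FPKM in 4-cell and 352 to 382 FPKM in 2-cell embryos. There 5 of the 6 markers were called lower, with a median of -2.73. Their part in the values of Hist1h2aa and Hist1h2ba was not tested.

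Of the related lists, 5 of 18 synthesis and processing genes were higher and 7 lower at the 4-cell stage in PR-DUB controls. All list counts in these controls stand beside 26.5% of all genes higher and 30.2% lower. Eri1, an exonuclease that trims the histone stem-loop, had 30.1 and 35.2 FPKM in PR-DUB CTR 4-cell and 3.02 and 3.08 FPKM in PR-DUB CTR 2-cell embryos (3.05 ± 0.21, adjusted p = 1.95e-07, limma), and Cpsf3 was higher by 2.37 on the log2 scale. Of 11 replication-independent histones 4 were higher and 2 lower; H3f3a, an H3.3 gene, was higher at 110.0 and 195 FPKM in 4-cell and 63.0 and 67.1 FPKM in 2-cell PR-DUB controls, and H1foo was lower at 11.8 and 14.8 FPKM in 4-cell and 26.1 and 38.9 FPKM in 2-cell PR-DUB controls. Of 17 chaperones 4 were higher and 8 lower, and of 14 S-phase genes 6 were higher and 4 lower. In KDM6B controls the counts were 7 higher and 2 lower of 18, 5 and 2 of 11, 8 and 3 of 17, and 7 and 4 of 14. There 38% of all genes were higher and 26.1% lower. Whether any list differed from all genes was not tested.

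Near-identical copies need care. Of the 69 models, 29 share at least 50% of their stretches of 76 bases, the read length, with another gene model, and 6 share none. Of 28 tested members with such sharing 19 were higher and 2 lower at the 4-cell stage in KDM6B controls, beside 38% and 26.1% of all genes. In PR-DUB controls 7 were higher and 6 lower, beside 26.5% and 30.2% of all genes. Some of these genes were nearly silent in one set and not in the other at the same stage. Hist1h2ao, which shares 93.1% of its stretches with Hist1h2ap, had 31.2 and 28.9 FPKM in KDM6B CTR 4-cell and 1.88 and 2.29 FPKM in PR-DUB CTR 4-cell embryos. Hist1h2ad had 17.4 and 22.3 FPKM in KDM6B CTR 4-cell and 0.284 and 1.95 FPKM in PR-DUB CTR 4-cell embryos. Hist1h2br had 13.4 and 14.2 FPKM in KDM6B CTR 4-cell and 0.466 and 1.65 FPKM in PR-DUB CTR 4-cell embryos. Such a gap was not particular to near-identical copies. Hist2h2ab, which shares 8.40% of its stretches, had 20.2 and 16.3 FPKM in KDM6B CTR 4-cell and 1.44 and 3.45 FPKM in PR-DUB CTR 4-cell embryos. The stage comparisons of these genes inherit that difference, which was not tested. In KDM6B controls the called changes of genes with at least 50% sharing were among the largest. They were Hist1h2ao 4.00 ± 0.35, adjusted p = 8.58e-07, Hist1h2ad 3.32 ± 0.42, adjusted p = 2.09e-05 and Hist1h2br 2.99 ± 0.36, adjusted p = 1.35e-05 (limma). Hist1h2bl, Hist1h2ai and Hist1h3h followed at 2.68 to 2.97 on the log2 scale. Hist2h2aa1, which shares 88.8% of its stretches, mostly with Hist2h2aa2, lay between 0 and 248 FPKM in the table of PR-DUB and KDM6B embryos, with 65.4 and 227 FPKM in the PR-DUB CTR 2-cell libraries; its stage change was not called without PR-DUB CTR 2-cell replicate 2 or without KDM6B CTR 4-cell replicate 1. Values of single genes in such families are uncertain, and the part of read assignment in them was not tested.

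PR-DUB OE 4-cell embryos held less of many histone transcripts than their controls. Of 68 members tested 1 was higher and 10 lower (limma on log2(FPKM + 1), adjusted p under 0.05), beside 12.3% of all genes called higher and 3.41% called lower. The members' median log2 change was -0.33, where that of all genes was 0.13, and 53 of 68 estimates were negative. Both OE libraries lay below both controls in 34 of 68 members tested (50%) and above in 2 (2.94%), where over all genes tested 18.8% lay below and 39% above. An unadjusted p under 0.05 was reached by 20 members (29.4%), close to the 29.1% of all genes. By type, 2 of 6 H1, 2 of 20 H2A, 4 of 18 H2B, 0 of 11 H3 and 2 of 13 H4 genes tested fell, and the median was between -0.30 and -0.38 in every type. All 10 lower genes were of the 56 in Hist1. The control libraries are the same as in the stage comparison above. In libraries rescaled by median-of-ratios factors the median of all genes was 0.00, and 0 members were called higher and 17 lower.

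Hist1h1a was the most abundant gene called, with 225 and 201 FPKM in PR-DUB OE 4-cell embryos and 375 and 411 FPKM in PR-DUB CTR 4-cell embryos, a log2 change of -0.88 ± 0.14, adjusted p = 0.00245 (limma). Both OE libraries lay below both controls. The other H1 gene called, Hist1h1t, was at low level, with 0.552 and 0.558 FPKM in OE and 2.32 and 2.95 FPKM in CTR embryos (-1.22 ± 0.36, adjusted p = 0.0369). The somatic H1 genes that rise at this stage were not called. Hist1h1c had 109 and 143 FPKM in OE and 127 and 133 FPKM in CTR embryos, which overlap, as did the values of Hist1h1b and Hist1h1e. Hist1h1d lay below its controls without overlap, at 57.3 and 58.0 FPKM in OE and 77.9 and 78.0 FPKM in CTR embryos.

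Among H2A genes Hist1h2ac (chr13:23681467-23683948) had the smallest p. It had 55.2 and 68.9 FPKM in PR-DUB OE 4-cell embryos and 159.9 and 153 FPKM in PR-DUB CTR 4-cell embryos (-1.33 ± 0.15, adjusted p = 5.97e-04, limma). The variant pair fell together: Hist1h2aa had 48.5 and 26.5 FPKM in OE and 102 and 82.8 FPKM in CTR embryos (-1.33 ± 0.24, adjusted p = 0.00421). Hist1h2ba, an H2B gene transcribed the other way from the same start region, had 17.6 and 12.5 FPKM in OE and 40.5 and 48.1 FPKM in CTR embryos (-1.51 ± 0.28, adjusted p = 0.00484). Neither gene's values overlapped between the groups. The only member called higher was Hist2h2ab, an H2A gene of the Hist2 cluster, with 5.44 and 7.33 FPKM in OE and 1.44 and 3.45 FPKM in CTR embryos (1.15 ± 0.36, adjusted p = 0.0497), a call that did not hold without either OE library, without CTR replicate 1, without the filter, in rescaled libraries or with only the compared libraries.

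The other H2B genes called were lower too, but less evenly. Hist1h2bb had 7.80 and 7.65 FPKM in OE and 18.0 and 26.5 FPKM in CTR embryos (-1.39 ± 0.30, adjusted p = 0.0101, limma). Hist1h2bh had 9.98 and 9.33 FPKM in OE and 15.1 and 30.1 FPKM in CTR embryos (-1.07 ± 0.23, adjusted p = 0.00993). Hist1h2bp had 24.1 and 6.21 FPKM in OE, the second library far below the first, and 46.6 and 37.1 FPKM in CTR embryos (-1.66 ± 0.43, adjusted p = 0.0215). The most abundant H2B gene, Hist2h2bb, had 116 and 157 FPKM in OE and 194 and 189 FPKM in CTR embryos, with no overlap and an adjusted p of 0.0620 (limma). Of H3 genes none was called; 1 of 11 had an unadjusted p under 0.05, Hist1h3f, which had 15.2 and 13.9 FPKM in OE and 20.4 and 20.5 FPKM in CTR embryos.

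The H4 genes called were lower by smaller factors. Hist1h4a had 34.9 and 29.5 FPKM in OE and 49.0 and 52.6 FPKM in CTR embryos (-0.65 ± 0.14, adjusted p = 0.0101, limma). Hist1h4c had 64.5 and 59.0 FPKM in OE and 94.2 and 97.7 FPKM in CTR embryos (-0.63 ± 0.16, adjusted p = 0.0207). Hist1h4d, the highest H4 gene by mean over the table, had 249 and 266 FPKM in OE and 354 and 354 FPKM in CTR embryos, apart but not called (adjusted p = 0.316, limma). With each library left out in turn 6 or 7 members were called. Hist1h1t and Hist1h4c were called in none of these 4 fits, Hist1h2bb and Hist1h2bp in 1 and Hist1h2bh and Hist1h4a in 2, while Hist1h1a, Hist1h2aa, Hist1h2ac and Hist1h2ba were called in every alternative tried. None of the 28 tested members that share at least 50% of their stretches was called, against 3 of 5 that share none and 8 of 35 that share less, which include Hist2h2ab. Over all genes 12.3% were called higher and 3.41% lower. The 8 oocyte markers summed to 82.1 to 82.7 FPKM in OE and 76.0 to 89.0 FPKM in CTR embryos and the 2-cell activation markers to 68.5 to 232 FPKM in OE and 139 to 176 FPKM in CTR embryos; of these, Zp3 was called higher and Tcstv1 lower. Their part in the histone values was not tested.

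**Figure D5:**
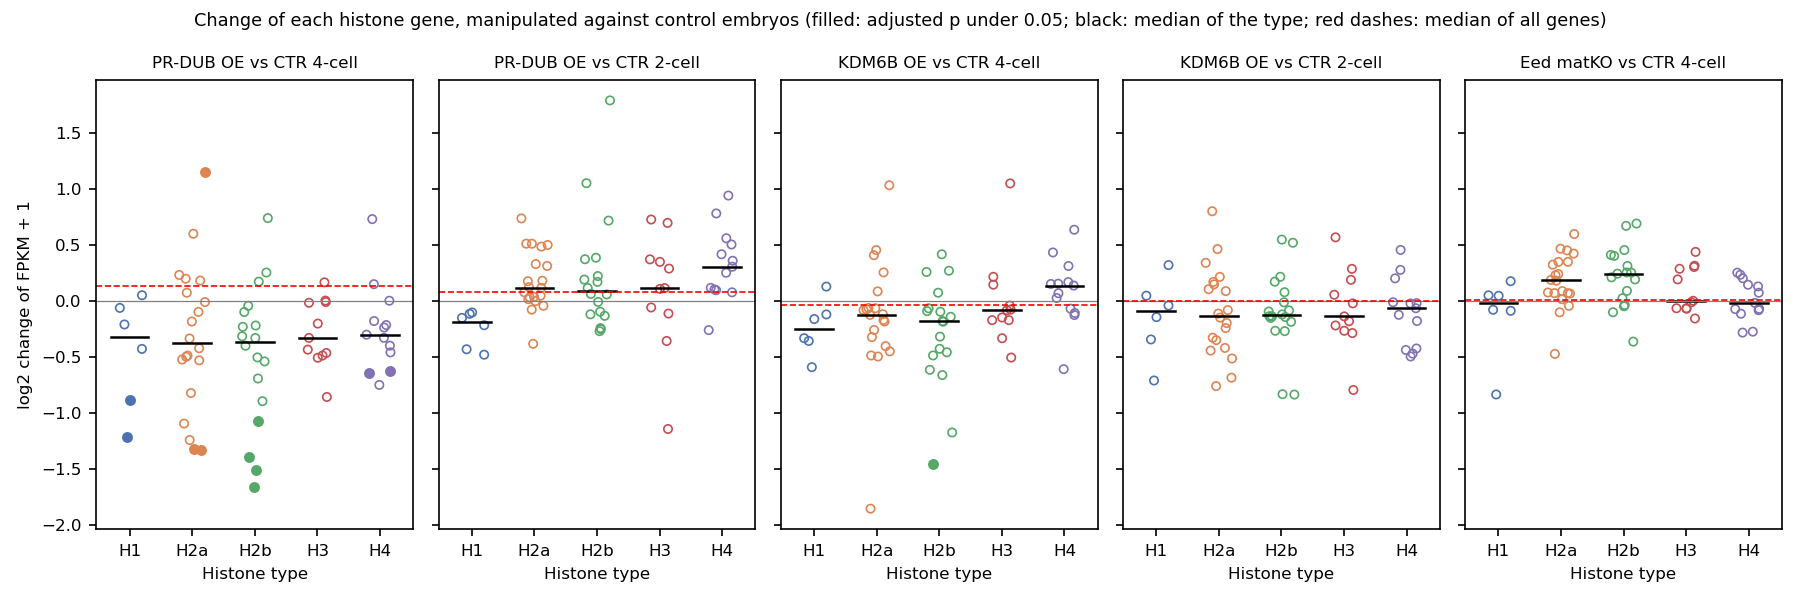
Log2 change of FPKM + 1 for each tested member in manipulated against control embryos, by histone type; filled points have an adjusted p under 0.05, black lines are type medians and red dashes the median of all genes. In PR-DUB OE 4-cell embryos the medians of all 5 types lie below 0 and 10 filled points are lower, while the other 4 panels hold 1 filled point in all.

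Genes that act on histone mRNA and protein were called in both directions in PR-DUB OE 4-cell embryos, beside the 12.3% higher and 3.41% lower of all genes. Of 18 synthesis and processing genes 5 were higher and 1 lower. The one lower was Slbp, which is named here after its values were seen, with 50.3 and 53.8 FPKM in OE and 93.2 and 87.5 FPKM in CTR embryos (-0.78 ± 0.13, adjusted p = 0.00338, limma). Xrn1, a 5′-to-3′ exonuclease, was higher at 16.5 and 17.8 FPKM in OE and 3.62 and 2.53 FPKM in CTR embryos (2.17 ± 0.28, adjusted p = 9.31e-04), and so were the 3′-end processing genes Cpsf2 and Cstf2 and the terminal uridyltransferase gene Zcchc11, with log2 changes of 1.33, 1.13 and 0.91. Of 17 histone chaperones 3 were higher (Rbbp4, Asf1b, Ssrp1) and 3 lower. Nap1l4 had 31.8 and 35.2 FPKM in OE and 46.8 and 48.9 FPKM in CTR embryos (-0.50 ± 0.12, adjusted p = 0.0185). Nasp, a chaperone of linker and core histones, was among the lower at 383 and 432 FPKM in OE and 578 and 565 FPKM in CTR embryos and, like Chaf1a, a subunit of the chromatin assembly factor, is named here after its values were seen. Of 11 replication-independent histones 0 were higher and 1 lower: H2afx, the H2A.X gene, at 224 and 246 FPKM in OE and 347 and 363 FPKM in CTR embryos (-0.59 ± 0.12, adjusted p = 0.00841). Of 14 S-phase genes E2f4 was higher and E2f1 lower, at 7.66 and 6.05 FPKM in OE and 10.7 and 10.4 FPKM in CTR embryos.

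At the 2-cell stage 0 of 68 members were called in PR-DUB OE against CTR embryos (limma), beside 0.983% of all genes higher and 0.193% lower. An unadjusted p under 0.05 was reached by 7 members (10.3%), where 14.1% of all genes reached it. The members' median was 0.11 and that of all genes 0.08. Hist1h1a had 1301 and 1381 FPKM in PR-DUB OE 2-cell and 1508 and 1377 FPKM in PR-DUB CTR 2-cell embryos, which overlap. Hist1h2ac had 130.2 and 130.0 FPKM in OE and 101 and 106 FPKM in CTR embryos. Hist1h4d had 65.3 and 59.6 FPKM in OE and 48.7 and 48.2 FPKM in CTR embryos. Both lay above their controls without a call. Hist1h3f had 87.9 and 92.7 FPKM in OE and 98.9 and 96.6 FPKM in CTR embryos. Hist2h2bb had 436 and 438 FPKM in OE and 543 and 512 FPKM in CTR embryos. Both lay below their controls, again without a call. Of the related lists, 1 gene was called, the H2A.Z chaperone gene Anp32e, lower at 56.9 and 61.0 FPKM in OE and 116 and 116 FPKM in CTR embryos (-0.97 ± 0.19, adjusted p = 0.0385, limma).

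Few members separated KDM6B OE embryos from their controls. At the 4-cell stage 0 members were higher and 1 lower of 68 (limma), beside 0.133% of all genes higher and 0.226% lower, and 8 (11.8%) had an unadjusted p under 0.05, where 11.6% of all genes did. The median was -0.11 and that of all genes -0.03, and its sign turned with the library left out: -0.44 without OE replicate 1, 0.21 without OE replicate 2, -0.22 without CTR replicate 1 and 0.01 without CTR replicate 2. The gene called was Hist3h2ba, with 0.239 and 0 FPKM in OE and 1.54 and 2.65 FPKM in CTR embryos (-1.45 ± 0.27, adjusted p = 0.0481, limma), and without any one of the 4 libraries it was not called. At the 2-cell stage 0 members were called (limma), beside 0.604% of all genes higher and 0.153% lower. An unadjusted p under 0.05 was reached by 4 members (5.88%), where 14.4% of all genes reached it. The median was -0.12, against 0.00 over all genes. Hist1h1a had 422 and 326 FPKM in KDM6B OE 4-cell and 371 and 464 FPKM in KDM6B CTR 4-cell embryos. At the 2-cell stage it had 1521 and 1334 FPKM in KDM6B OE and 1589.6 and 1562 FPKM in KDM6B CTR embryos. Hist2h2bb had 372 and 376 FPKM in OE and 383 and 372 FPKM in CTR embryos. None of these was called. At the 4-cell stage Hist1h2ac had 86.3 and 69.5 FPKM in OE and 103 and 117 FPKM in CTR embryos. Hist1h4d had 363 and 159 FPKM in OE and 221 and 303 FPKM in CTR embryos. Neither was called, and the Hist1h4d values of OE embryos spanned those of the controls. The 2 OE libraries were apart, replicate 1 being the higher in the sum, and 54 of 68 members tested (79.4%) overlapped their controls, where 64.9% of all genes tested did. In the related lists 0 genes were called at the 4-cell stage, and at the 2-cell stage only the oocyte marker Gdf9, lower; the 8 oocyte markers summed to 555 to 643 FPKM in KDM6B OE 2-cell and 815 to 852 FPKM in KDM6B CTR 2-cell embryos.

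In Eed matKO 4-cell embryos 0 of 67 members were called against Eed CTR embryos (limma with 2 residual degrees of freedom), beside 0.0171% of all genes higher and 0% lower; 2 members had an unadjusted p under 0.05, and over all genes 523 were higher and 442 lower at that level. The median was 0.09 and that of all genes 0.01, and its sign turned with the library left out: 0.30 without matKO replicate 1, -0.04 without matKO replicate 2, 0.44 without Eed CTR replicate 1 and -0.21 without Eed CTR replicate 2. The groups overlapped in 63 of 67 members tested (94%), where 60.6% of all genes tested overlapped. The 2 members were Hist2h2ab, at 41.2 and 47.4 FPKM in matKO and 33.5 and 24.9 FPKM in Eed CTR embryos, and Hist2h2bb, at 406 and 435 FPKM in matKO and 335 and 208 FPKM in Eed CTR embryos. Hist1h1a had 379 and 521 FPKM in matKO and 533 and 349 FPKM in Eed CTR embryos, and Hist1h1c had 224 and 262 FPKM in matKO and 282 and 195 FPKM in Eed CTR embryos. Hist1h2ac had 147 and 202 FPKM in matKO and 231 and 114 FPKM in Eed CTR embryos. Hist1h3g, the highest H3 gene by mean over this table, had 76.0 and 116 FPKM in matKO and 157 and 69.9 FPKM in Eed CTR embryos. Hist1h4d had 277 and 322 FPKM in matKO and 346 and 233 FPKM in Eed CTR embryos. In each of these the matKO values overlapped the Eed CTR values. The Eed CTR libraries themselves were apart in the sum, replicate 1 being the higher.

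Whether PR-DUB overexpression acted differently on a member at the 2 stages, or differently from KDM6B overexpression, was tested as a difference of log2 changes. Between stages 1 member was called of 68, where 1.74% of all genes were called in either direction: Hist1h2ac, with a change of -1.33 at the 4-cell stage and 0.33 at the 2-cell stage, a difference of -1.66 ± 0.22, adjusted p = 0.00759 (limma). The median difference was -0.52 over the members and 0.07 over all genes. Between PR-DUB and KDM6B 0 members were called at the 2-cell stage (limma), where 1.72% of all genes were called. An unadjusted p under 0.05 was reached by 4 of 68 members and by 2677 of 15055 genes. At the 4-cell stage 6 members were called, where 9.27% of all genes were. The PR-DUB change was more negative for Hist1h4a (difference -1.08 ± 0.20, adjusted p = 0.00997), Hist1h1a (-0.72 ± 0.20, adjusted p = 0.0410), Hist1h2ac, Hist1h2ba and Hist2h2bb, and more positive for Hist3h2ba. In rescaled libraries 5 were called, 0 of them more positive. The share of members called was near that of all genes in both of these comparisons. These differences reuse the control libraries of the comparisons above. For the PR-DUB 4-cell libraries a NextSeq550 is given, and for the KDM6B 4-cell libraries a NextSeq550 or HiSeq2000, not stated per library. Manipulation and any difference in sequencing cannot be told apart in the comparison of PR-DUB with KDM6B at the 4-cell stage.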

How the data were processed

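Total RNA of pooled oocytes or embryos was made into libraries with the SMART-Seq Stranded kit and sequenced in pairs of 76 bases, per the labels' protocols. The deposited values are FPKM per gene made by the authors; Trim Galore 0.6.5, HISAT2 2.1.0, StringTie 1.3.3b and the mm10 build are named per the submitters' processing notes, while the annotation release and strand setting were not given in the sources used here. FPKM carries no counts, so low genes have coarse values; depth, from the steps between low values, was about 11500000 to 20500000 fragments and sets the precision.

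The members and all gene lists were chosen with earlier results of these data known. Each of the 3 tables was normalized and tested on its own. Genes reaching 1 FPKM in at least 2 libraries were kept, which left 15055, 11679 and 13237 genes; log2(FPKM + 1) was fitted in limma 3.58.1 (R 4.3.3) with a mean-variance trend, as 8 group means in the first table (8 residual degrees of freedom) and 2 in each of the others (2 residual degrees of freedom). Calls have a Benjamini-Hochberg adjusted p under 0.05 over all genes tested. The fitting script was tested on simulated data. Calls were made again with a pseudocount of 0.1, without the filter, in libraries rescaled by median-of-ratios factors, with only the compared libraries, with a replicate block and without each library. All members may be named; full statistics go to called members, or to the 12 with the largest change, and values to the 2 highest genes of each type, with other members named by their role; listed genes are named if called, up to 4 per list.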

Additional observations from a re-analysis of the deposited data

Results flagged for a closer look

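The change under PR-DUB overexpression in Hist1h2ac differed between the 4-cell and the 2-cell stage by -1.66 on the log2 scale (adjusted p = 0.00759 for the difference in limma); it was called in all 13 settings tried.

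At the 4-cell stage the PR-DUB and KDM6B changes differed, by limma's test of the difference, in 6 of 68 members tested. Over all genes 9.27% were called, so the share of members was near that of all genes. The PR-DUB change minus the KDM6B change was -1.08 for Hist1h4a (adjusted p = 0.00997), -0.72 for Hist1h1a (adjusted p = 0.0410), -0.83 for Hist1h2ac (adjusted p = 0.0350), -1.41 for Hist1h2ba (adjusted p = 0.0445), -0.92 for the protein-coding Hist2h2bb, ENSMUSG00000105827 (adjusted p = 0.0342), and 1.41 for Hist3h2ba (adjusted p = 0.0409). Hist1h4a was called in all 8 fits that left out 1 library; the other 5 genes were called in 2 or 3 of the 8. With only the compared libraries, and with the replicate block, 0 of the 6 were called, Hist1h4a included. For the PR-DUB 4-cell libraries a NextSeq550 is given, and for the KDM6B 4-cell libraries a NextSeq550 or HiSeq2000, not stated per library. Manipulation and any difference in sequencing cannot be told apart in these values.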

How the results depend on the processing

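No called member changed direction under any alternative. The 11 members called in PR-DUB OE 4-cell embryos became 17, all lower, in rescaled libraries and 6 to 7 without 1 library; 4 of 11 were called in every alternative. The 1 member called in KDM6B OE 4-cell embryos became 0 without the filter, in rescaled libraries, with only the compared libraries, with the replicate block and without any 1 of the 4 libraries (0 to 0). The 56 called in late 2-cell embryos became 32 and 33 without late 2-cell replicate 2 or 1, where only 39 members were tested. Over all libraries left out the range was 32 to 57. Of the 56, 50 were called in every alternative that tested them. These 50 include all 23 members that reached 1 FPKM in late 2-cell libraries alone. Under the filter those 23 had to come out higher, and none was tested with either late 2-cell library left out. For them the count of 50 therefore does not show that the call holds without a late 2-cell library. Of the 35 called between stages in PR-DUB controls 28 were called in every alternative, and of the 50 in KDM6B controls 42. The difference of the PR-DUB effect between stages, 1 member, became 4 in rescaled libraries, 4 with only the compared libraries and 1 to 3 without 1 library. The difference between PR-DUB and KDM6B at the 4-cell stage, 6 members, became 1 without the filter, 0 with only the compared libraries, 0 with the replicate block and 2 to 8 without 1 library. Rescaling took the all-gene median change on the log2 scale to 0.00, against 0.13 as deposited, in PR-DUB OE 4-cell embryos, to 0.02 against 0.28 between stages in KDM6B controls and to 0.10 against -0.20 in late 2-cell embryos. Apart from the fewer genes tested, the cause of these changes was not tested.

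Samples that share a replicate number did not deviate together over all genes (r between -0.0622 and 0.0366). A correlation over all genes can miss a pairing that moves only some of them. Whether these samples share more than a number is therefore not known. With the replicate block PR-DUB OE 4-cell embryos had 8 members called, PR-DUB controls 35, KDM6B controls 50 and late 2-cell embryos 58. Where leaving out a library left 1 in a group, that library was assumed to vary like the others. Groups of 2 libraries, near-identical copies and FPKM without counts limit every value of a single low gene.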
